A study of Arabidopsis thaliana with 15 samples.

Results

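Among 22746 probe sets measured in sorted Arabidopsis root cells, 77 had a mean signal that stepped down through the whole brassinolide course in stele cells. The mean was lower at 0.5 h than in the untreated control, lower again at 1 h and at 2 h, and lowest at 4 h. Each mean is over 2 arrays, and single arrays seldom kept this order, as given below. A member also had to be at least 1 lower at 4 h than in the control on the log2 scale (a halving on that scale) and to be called present on both control arrays. Of all probe sets, 10993 were called present on both control arrays, 238 of these stepped down at every time, and 77 of the 238 reached the size. The 77 are thus 0.7004% of the 10993 that could have been chosen. The probe annotation used here names 1 gene for 40 of the 77 and lists none for 37. Because the members were chosen by these stele signals, their course in stele cells is described here without a test.

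Each sample was hybridised to its own Affymetrix ATH1 array with RNA from root protoplasts of Arabidopsis thaliana seedlings aged 6 days, purified by fluorescence-activated sorting. Stele cells, carrying pWOL:GFP and called WOL here, were collected untreated and after 0.5, 1, 2 and 4 h on medium with 10 nM brassinolide (BL), each of the 5 groups having 2 arrays, A and B. Provascular cells, carrying pAtHB15:YFP and called ATHB15 here, gave 3 untreated arrays and 2 arrays after 2 h of 10 nM BL. All groups went through the same enzymatic release of protoplasts at room temperature before sorting, the labels name no mock transfer matched in time, and whether the arrays of a group come from separate cultures is not stated, so p-values may reflect only array-to-array spread. Each reporter shows where its promoter is active, so the sorted cells are those with enough fluorescence and not a single cell type.

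Brassinosteroids are plant steroid hormones perceived at the cell surface by the receptor kinase BRI1 and, in vascular cells, also by its relatives BRL1 and BRL3. Signalling inactivates the kinase BIN2 and lets the transcription factors BZR1 and BES1 act in the nucleus, where they activate some genes and repress others. In roots the hormone sets cell elongation, the size of the meristem and vascular patterning, and the repressed genes include those for synthesis of the hormone itself.

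The share of probe sets called present ran from 49.5% to 59.6% over the arrays, and the correlation across probe sets between 2 arrays of 1 group was 0.898 to 0.962. WOL control B and WOL BL 4 h A stood apart for the members: control B held the highest of the 10 WOL signals for 68 of the 77 members, and 4 h A held the lowest for 67. The rule asks for a high control mean and a low 4 h mean, so extremes on a control and a 4 h array are largely built in. The share over all probe sets was not counted. Of the genes listed as markers of the stele, PHV and LHW are named in the probe annotation, and both were called present on all WOL and ATHB15 arrays. Their summed signal was 1344 and 2390 on WOL control A and B and 745 and 1584 on 4 h A and B, so the listed stele markers were lowest on the array where the members were lowest; PHV differed by -0.42 and LHW by -0.85 at 4 h on the log2 scale. The WOL and AtHB15 genes themselves are among those not named in it, so the sorted identity was checked on these genes alone. In 2 named epidermal markers, EXPA7 and EXPA18, the summed signal was 599 and 166 on WOL control A and B and 1206 and 1245 at 0.5 h. On A and B it was 1099 and 429 at 1 h, 994 and 511 at 2 h and 648 and 265 at 4 h. Of the 10 WOL arrays this sum was thus lowest on control B, where most members were highest. Over the ATHB15 arrays the summed signal was 10.2 to 151. In 3 named markers of endodermis and cortex, SGN3, PEP and CO2, it was 526 and 236 on WOL control A and B and 1159 and 254 on 4 h A and B. SGN3 gave most of that signal, with 1096 on 4 h A and 184 on 4 h B, so it was highest on the array where the members were lowest. PEP was called present on 0 and CO2 on 1 of the 10 WOL arrays. No root cap, phloem or xylem gene on the lists is named in the annotation. The part of other cell types in the course was not tested, and in a sorted bulk sample fewer cells of a type and less RNA per cell cannot be told apart.

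The members as a group moved from a median of 8.15 and 8.71 on the log2(signal + 16) scale on WOL control A and B to 8.13 and 7.97 at 0.5 h, 7.86 and 7.63 at 1 h, 7.64 and 7.53 at 2 h, and 6.78 and 7.59 at 4 h. Control A and 0.5 h A were thus almost level, and the 4 h B array was level with the 2 h arrays. The median over the 10993 probe sets present in both controls was 8.11 to 8.28 on all 10 arrays. Signals are the deposited intensities on a linear scale, which share a trimmed mean on every array. The mean signal of a member in the control ran from 85.7 to 5868, with a median of 326, and at 4 h from 14.0 to 2605, with a median of 144. The difference between control and 4 h ran from 1.00 to 2.07 on the log2 scale, with a median of 1.18, and was 1.5 or more for 13 members.

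**Figure D1:**
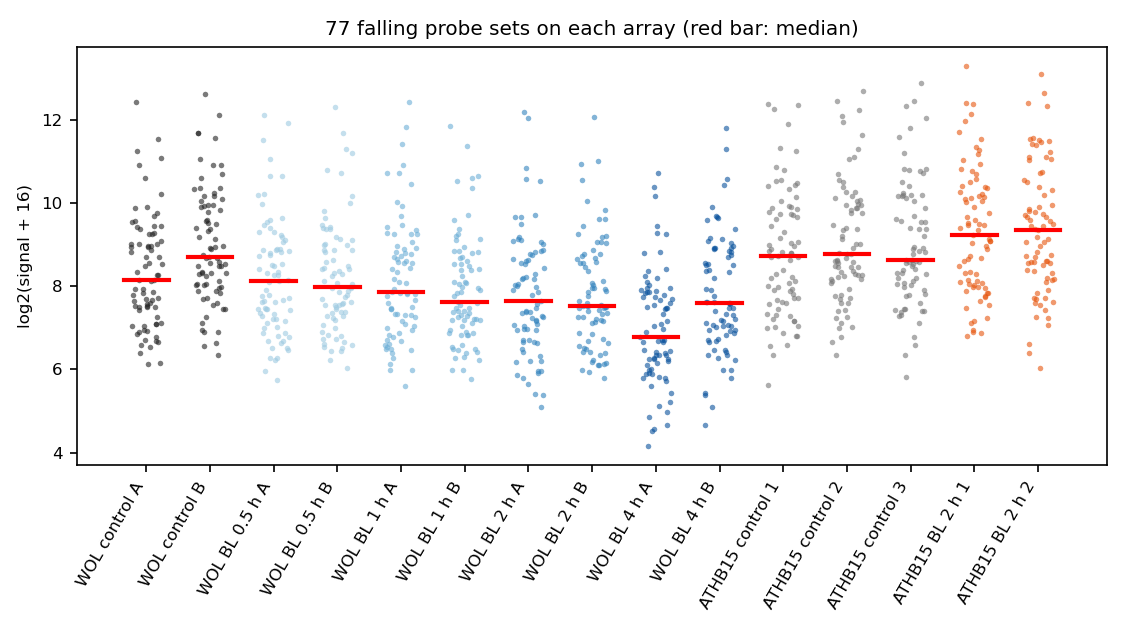
Each point is 1 of the 77 members on 1 of the 15 arrays, as log2(signal + 16), and red bars are medians over the members. The WOL medians go from 8.15 and 8.71 in the control to 6.78 and 7.59 at 4 h, and the ATHB15 arrays lie at 8.64 to 8.77 untreated and 9.23 to 9.36 after BL.

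Differences ran on without a gap across the size threshold. Just inside it lay BSH at 1.00 and CHC1 at 1.01, both subunits of SWI/SNF chromatin remodelling complexes, the protein phosphatase gene TOPP7 at 1.02 and AT1G68220 at 1.02. Just outside were AT4G38100 at 0.99 and 3 probe sets without a listed gene at 0.98 to 0.99. A further 161 probe sets stepped down at every time and were present in both controls but did not reach the size.

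EXPA15, an alpha-expansin gene whose protein loosens the cell wall, had one of the largest differences. Its signal was 1173 and 1305 in WOL control A and B, 585 and 564 at 0.5 h, 676 and 319 at 1 h, 498 and 220 at 2 h, and 226 and 355 at 4 h. Both control arrays lay above all 8 BL arrays, and the difference between control and 4 h was 2.06 on the log2 scale. With control A alone it was 1.99 and with control B alone 2.14, so for EXPA15 both controls gave nearly the same size. In ATHB15 cells the signal was higher than on any WOL array, 2441, 3964 and 3072 in the control and 2982 and 5373 after 2 h of BL.

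Genes of ribosome production and translation were found among the members. PRH75, a DEAD-box RNA helicase of the nucleolus, had a WOL signal of 935 and 1644 in the control, 1166 and 1138 at 0.5 h, 1033 and 823 at 1 h, 792 and 896 at 2 h, and 198 and 419 at 4 h. At 2 h it was 0.55 below the control, and 1.49 of its log2 difference of 2.04 lay between 2 and 4 h. AT3G03920, which encodes a Gar1-type protein of the small nucleolar particles that modify ribosomal RNA, had the highest control signal of the 40 named members, 5491 and 6245, against 1661 and 3550 at 4 h. AT5G48760, a gene for a protein of the large cytosolic ribosomal subunit, stood at 811 and 981 in the control and 288 and 546 at 4 h, and all 8 BL arrays lay below both controls. For both, more of the difference lay between 2 and 4 h than in any earlier step.

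Genes with a role in plastids formed another set. AT5G24490, which encodes a plastid ribosome-associated protein, had the largest difference of the 77, 2.07 on the log2 scale. Its WOL signal was 166 and 486 in the control, 182 and 173 at 0.5 h, 108 and 130 at 1 h, 73.8 and 89.6 at 2 h, and 65.4 and 47.5 at 4 h. Control B lay far above control A, and control A lay below both 0.5 h arrays. CHLM, a methyltransferase of chlorophyll synthesis, had 79.9 and 104 in the control and 40.7 and 9.3 at 4 h. AT5G08650, a plastid translation factor of the LepA type, had 99.7 and 78.2 in the control and 21.0 and 47.9 at 4 h. CHLM and AT5G08650 were called absent on both 4 h arrays, so the difference of their group means is only bounded. It was at least 1.31 for CHLM and at least 1.10 for AT5G08650 on the log2 scale, the latter equal to its plain difference. The bound does not hold for single arrays. With 4 h A or 4 h B alone the plain difference was 0.92 or 2.08 for CHLM and 1.50 or 0.71 for AT5G08650.

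Genes for DNA topology and chromatin were also members. TOPII, the DNA topoisomerase II of dividing cells, had a WOL signal of 499 and 1535 in the control, 429 and 346 at 0.5 h, 367 and 346 at 1 h, 297 and 392 at 2 h, and 94.0 and 644 at 4 h. The highest and lowest values came from control B and 4 h A, and 4 h B lay above control A. The log2 difference of 1.73 was 0.94 with control A alone and 0.44 with 4 h B alone. TOP3A, a topoisomerase of recombination and repair, had 106 and 220 in the control and 39.1 and 85.3 at 4 h. CHC1 had 600 and 763 against 218 and 489, and BSH had 189 and 235 against 88.0 and 108. In these 3 genes the control and 4 h arrays did not overlap.

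Components of the nuclear pore were represented by AT3G16310 and AT4G32910. AT3G16310 had a signal of 645 and 1307 in the control and 259 and 434 at 4 h. AT4G32910 had 855 and 1930 in the control, 994 and 875 at 0.5 h, and 435 and 760 at 4 h, so that control A lay below both 0.5 h arrays. The control and 4 h arrays did not overlap in either gene.

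AT3G15450 and AT4G27450 encode related proteins of the aluminium-induced type with YGL and LRDR motifs. AT3G15450 had a WOL signal of 2141 and 3005 in the control, 2133 and 2336 at 0.5 h, 1905 and 1476 at 1 h, 828 and 773 at 2 h, and 610 and 790 at 4 h. AT4G27450 had 354.5 and 476.0, 343 and 370, 460.2 and 238, 173 and 161, and 219 and 107 at the same times. Both genes had their largest step between 1 and 2 h, 1.05 for AT3G15450 on the log2 scale, and in both the 2 h arrays lay below every earlier array.

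Other members with a known role had differences of 1.05 to 1.63. AT5G48940, a leucine-rich repeat receptor-like kinase, had 679 and 1129 in the control and 217 and 779 at 4 h, which overlap. AT1G72820, of the mitochondrial carrier family, had 746 and 1283 in the control and 279 and 460 at 4 h. AT1G62150, of the mTERF family of organelle gene regulators, had 483 and 1205 in the control, 355 and 331 at 0.5 h and 198 and 471 at 4 h. The F-box gene AT3G23880 had 477 and 656 in the control and 89.1 and 312 at 4 h, and AT4G16770, an oxygenase gene of the 2-oxoglutarate type, had 311 and 632 against 87.2 and 276. AT3G27550, an RNA-binding gene of the CRM type, had 138 on control B, 86.9 and 82.2 at 0.5 h, and 13.1 and 27.5 at 4 h, where both arrays were called absent. Its control A lay below both 0.5 h arrays, and the bound of at least 1.41 for its log2 difference rests on both controls: with control A alone the difference was 0.98. AT3G02690 had 88.2 and 195 in the control and 18.8 and 73.2 at 4 h, both called absent. Its log2 difference of 1.41 was 0.90 without control B and 0.73 without 4 h A. The roles were assigned after the members were known, and nothing is claimed for a role as a group.

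**Figure D2:**
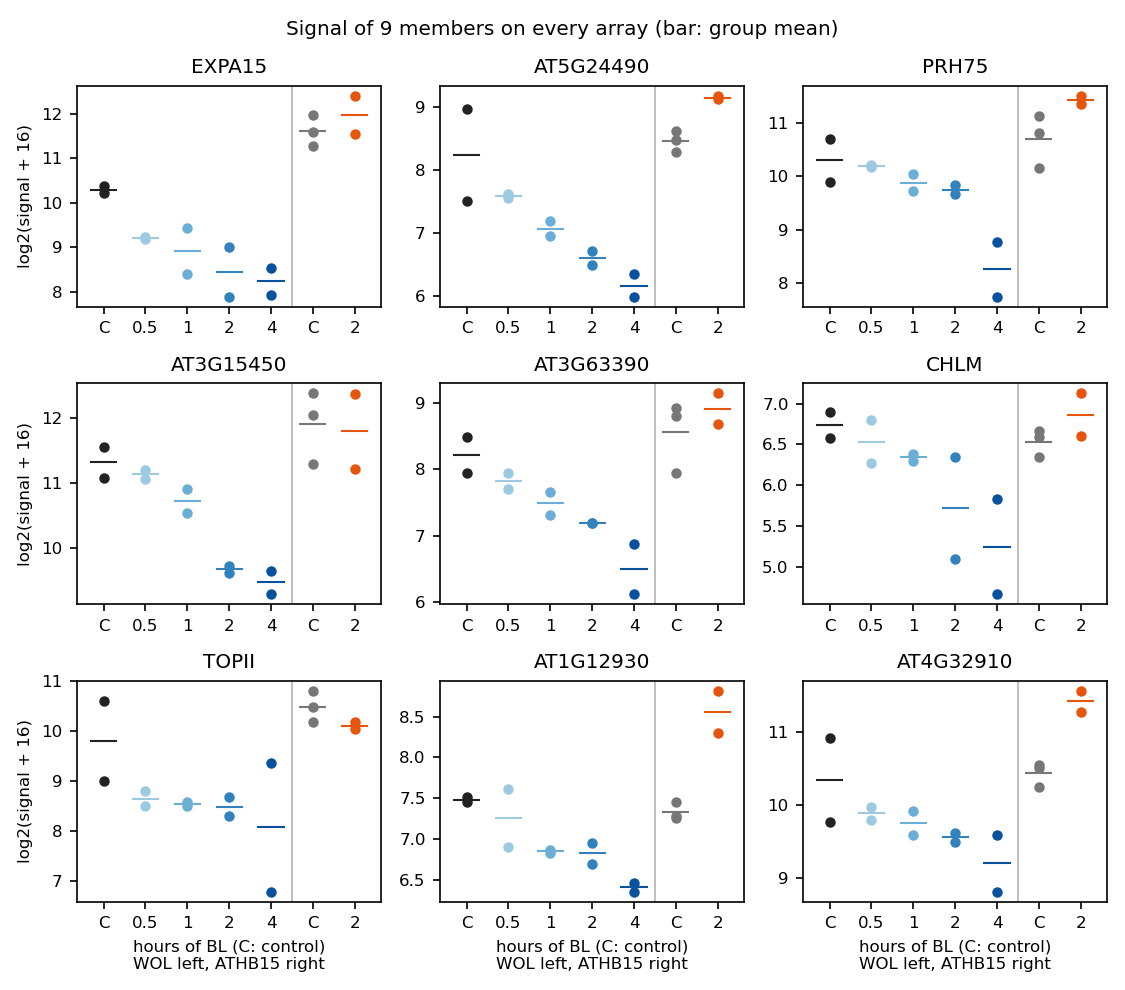
The signal of 9 members on all 15 arrays, as log2(signal + 16), with WOL groups to the left of the grey line and ATHB15 groups to the right; bars are group means and each panel has its own scale. EXPA15 and AT3G15450 have close control arrays and a step down by 2 h, whereas in TOPII the 4 h arrays, at 94.0 and 644 signal units, lie far apart.

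The members that share the rule did not share one course. Their order held for group means: the arrays labelled A fell at every step for 19 of the 77, those labelled B for 13, and both for 2. Some steps were close to none, with the smallest at 0.0066 between 1 and 2 h and 0.0055 between 2 and 4 h on the log2 scale. The largest step lay between control and 0.5 h for 32 members, between 0.5 and 1 h for 2, between 1 and 2 h for 9, and between 2 and 4 h for 34. The median step was 0.44, 0.17, 0.13 and 0.44 on the log2 scale in that order. The part of a member's whole difference that was already there at 0.5 h ran from 1.06% to 87.9%, with a median of 31.3%. AT1G62150 marked the early end with 87.9%, followed among the named members by AT1G53200 with 75.0%, TOPP7 with 74.6%, AT1G72820 with 67.7% and TOPII with 66.8%. AT5G58920 with 1.06%, AT3G27550 with 3.05% and PRH75 with 5.16% marked the late end. The median size of the first and of the last step each leaned on 1 array. With control A alone as the control, the median first step was 0.08, and 54 of 77 were still lower at 0.5 h. With 4 h B alone the median last step was 0.00, and 38 of 77 were still lower at 4 h than at 2 h. The counts of largest steps moved too. Without control B the first step was largest for 13 members and the last for 44, and without 4 h A for 48 and 13.

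**Figure D3:**
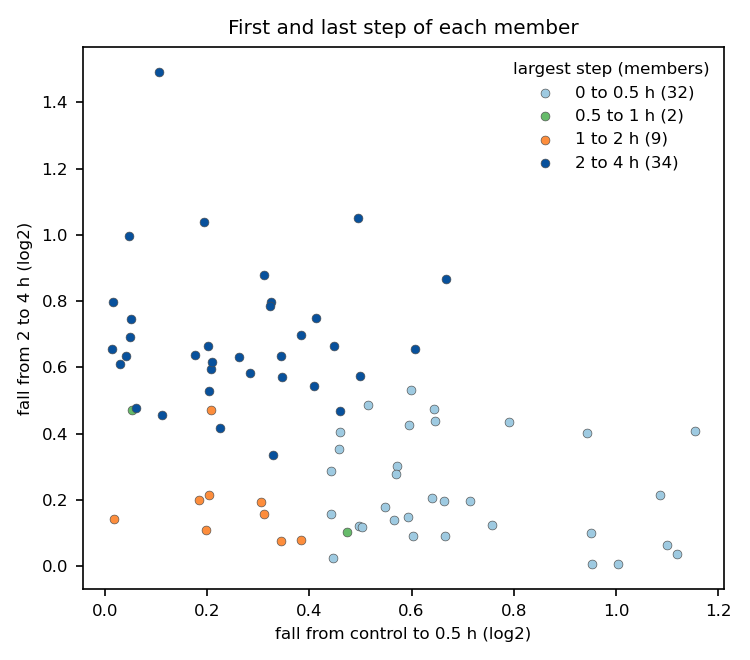
Each point is a member, placed by its log2 step from control to 0.5 h and from 2 to 4 h, and coloured by the step that was largest. The largest step came first for 32 members and last for 34, and 11 members had a middle step as the largest. The colours follow from the steps on the axes, so their separation is no result.

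The size of the differences depended on which control and which 4 h array was used. With control B alone, 75 of 77 members were at least 1 lower at 4 h, with a median of 1.53, and with control A alone 25 were, with a median of 0.90. With 4 h A alone it was 74 members with a median of 1.65, and with 4 h B alone 22 with a median of 0.80. Between control A and 4 h B, the closest pair, 70 of 77 were still lower at 4 h, with a median of 0.52, and 14 were lower by 1 or more. Control B exceeded control A for 71 of the members, by a median of 0.67, and for 59.7% of all probe sets present in both, by a median of 0.15. The 4 h B array exceeded 4 h A for 70 members, by a median of 0.79, where the median over those present in both controls was 0.20.

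In 10 members every control array was at least 1 above every 4 h array on the log2 scale, among 27 such probe sets of the 10993. The named ones were EXPA15, whose closest control and 4 h arrays differed by 1.68, AT3G15450 by 1.42, AT5G24490 by 1.16, PRH75 by 1.13 and AT3G63390 by 1.07. AT3G63390 had a signal of 230 and 342 in the control, 193 and 231 at 0.5 h, 186 and 143 at 1 h, 131 and 130 at 2 h, and 53.3 and 101 at 4 h. It was the 1 member that still met the whole rule whichever of the 10 WOL arrays was left out. The control and 4 h arrays did not overlap for 69 of the 77 members, where 17.2% of all probe sets and 18.9% of those present in both controls were lower at 4 h without overlap. The rule chose on that difference, so the share says nothing further. In limma, an empirical Bayes linear model fitted across all probe sets, 0 of 22746 were called at 4 h against the control at a Benjamini-Hochberg adjusted p under 0.05, and 1903 had an unadjusted p under 0.05.

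**Figure D4:**
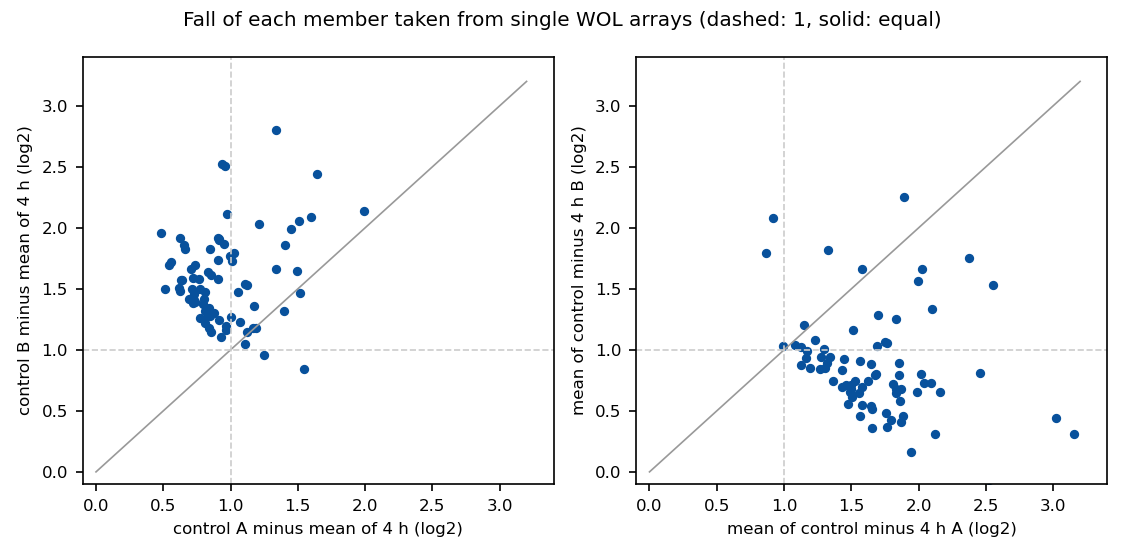
Each point is a member. The left panel sets its log2 difference from the 4 h mean with control A alone against that with control B alone, and the right panel sets 4 h A against 4 h B from the control mean. Dashed lines mark 1 and the solid line marks equal values. Most members lie above the line on the left, where 71 of 77 are higher in control B, and below it on the right, where 70 of 77 are lower on 4 h A.

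Signs of RNA quality were compared for the same arrays. The 3' to 5' signal ratio of the GAPDH control probe sets was 2.71 to 4.66 in the WOL control, 1.24 to 1.47 at 0.5 h, 2.04 to 2.23 at 1 h, 1.91 to 2.85 at 2 h and 3.33 to 3.84 at 4 h. The actin ratio was 28.4 to 48.3 in the control and 39.8 to 48.9 at 4 h, and the UBQ ratio was 5.07 to 7.43 and 5.08 to 5.15. All 3 ratios overlapped between the control and 4 h, the ends of the course. Control B, which held the highest signal for most members, had the highest UBQ and GAPDH ratios of the 10 WOL arrays, 7.43 and 4.66, and an actin ratio of 48.3 against 28.4 on control A. At 1 h all 3 ratios were below both controls, at 0.5 h the GAPDH and actin ratios were, and at 2 h the UBQ ratio (3.79 to 4.90) and the actin ratio (24.1 to 26.1) were. The part of RNA quality in the course was not tested.

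The ATHB15 arrays were not used to choose the members, so the change after 2 h of BL in provascular cells could be tested. The spread in that test came from all 15 arrays, with the WOL arrays of the choice among them. Standard errors and calls are therefore not free of the choice. The SE was 0.59 for TOPII and 0.30 for the member called below, and 0.31 and 0.35 with the ATHB15 arrays alone. In ATHB15 cells the members stood higher after BL more often than lower. The difference (BL minus control) was above 0 for 56 of 77 members and below 0 for 21, with a median of 0.35 on the log2 scale and a range of -0.84 to 1.57. Over all 22746 probe sets 47.7% were above 0 and the median was -0.03, and over the 10993 present in both WOL controls 49.99% were above 0 and the median was near 0. The median over members was 8.73, 8.77 and 8.64 on the control arrays and 9.23 and 9.36 on the BL arrays, which do not overlap. With the UBQ 3' to 5' ratio as a covariate, 48 members were above 0 and the median was 0.16. That ratio was 5.99 to 9.07 in ATHB15 BL and 4.01 to 4.85 in ATHB15 control, without overlap, and its part in the difference cannot be told apart from BL by these arrays.

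**Figure D5:**
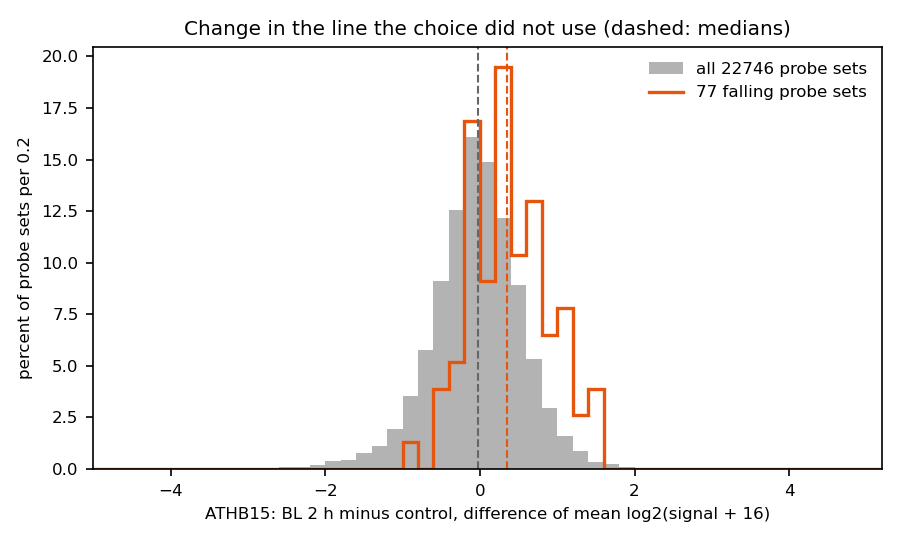
The horizontal axis is the log2 difference between ATHB15 BL 2 h and ATHB15 control, and the vertical axis is the percent of probe sets in bins of 0.2. The orange outline holds the 77 members, with a dashed median at 0.35, and the grey fill holds all 22746 probe sets, with a dashed median at -0.03.

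In limma over all 22746 probe sets, 1 member was called higher in ATHB15 cells after BL and 0 were called lower, where 0.352% of all probe sets were called higher and 0.761% lower. The called member has no listed gene. Its signal was 495, 857 and 770 in the ATHB15 control and 1508 and 2128 after BL, so every BL array lay above every control array. The log2 difference was 1.36 ± 0.30 (SE, n = 2 and 3; adjusted p = 0.0466, limma), and over the alternatives the adjusted p ran from 0.0182 to 0.401, the highest without ATHB15 BL 2. In WOL cells the same probe set had 733 and 740 in the control, 531 and 515 at 2 h, and 324 and 311 at 4 h. At an unadjusted p under 0.05, 16 members were higher (6.11% of all probe sets were) and 0 were lower (7.57% were).

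The 4 named members with the highest differences in ATHB15 cells were not called. AT1G12930 had 139, 137 and 159 in the control and 299 and 435 after BL, a log2 difference of 1.23 ± 0.30 (SE, n = 2 and 3; adjusted p = 0.0646, limma). AT1G68220 had 462, 503 and 457 in the control and 1080 and 968 after BL, a difference of 1.08 ± 0.28 (SE; adjusted p = 0.0818, limma). Both were called with an offset of 64 and when dim probe sets were left out, and in both the groups did not overlap. AT5G59500 had 265, 373 and 343 against 638 and 792, and its difference of 1.10 was not called (adjusted p = 0.192, limma). AT3G54970 had 101, 195 and 151 against 247 and 412, a difference of 1.07 that was not called (adjusted p = 0.322, limma).

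Without regard to the model, every ATHB15 BL array was above every ATHB15 control array for 33 members, where 20.0% of the probe sets present in both WOL controls were, and below for 3, where 21.0% were. Among the 17 named members with all BL arrays above were AT4G32910, with 1486, 1445 and 1202 in the control and 2474 and 3022 after BL, PRH75, with 1122, 2203 and 1764 against 2571 and 2870, and TOP3A, with 196, 202 and 201 against 254 and 377. AT5G24490, which had the largest WOL difference, was another, with 298, 340 and 380 against 544 and 563. None of these 4 was called (adjusted p from 0.223 to 0.556, limma). The 3 with all BL arrays below were AT5G22340 and 2 probe sets without a listed gene. For 28 members the 2 h arrays also lay below both controls in WOL cells, a pattern found in 6.88% of the probe sets present in both WOL controls, and its WOL side was part of the choice.

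At the other end, the lowest differences among named members were -0.50 for AT3G17160, -0.37 for TOPII, -0.26 for AT4G16770 and -0.19 for AT1G72410, none of them called (adjusted p from 0.641 to 0.891, limma). AT3G17160 had 4895, 4345 and 5623 in the ATHB15 control and 4485 and 2696 after BL, which overlap. TOPII had 1408, 1140 and 1777 against 1034 and 1153. PRH75 is the 1 named member in a gene list, that of ribosome biogenesis, and it differed by 0.73 ± 0.38 (SE, n = 2 and 3, adjusted p = 0.427, limma). The 37 members without a listed gene could not be looked up in the lists.

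Untreated ATHB15 cells held the members at a level close to WOL control B. The mean of the ATHB15 control was above that of the WOL control for 61 members, by a median of 0.31 on the log2 scale, where the median over probe sets present in both WOL controls was 0.07. No test of this difference between lines was made.

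The other genes of ribosome biogenesis that have a named probe set did not step down in order. Of 18 listed genes 5 have a named probe set, PRH75, PES, WDR12, BRX1-1 and BOP1. Since 8730 of the 22746 probe sets have no gene listed, the other genes may be on the array without a name. All 5 were lower at 4 h than in the WOL control, with a median of -0.67 on the log2 scale, where the median over all probe sets was -0.05. PRH75 is in that count by the choice of members, and both of its 4 h arrays lay below both controls. For the summed signal the lower level lay on 4 h A: the 5 genes summed to 9266 and 13285 on control A and B, 4224 on 4 h A and 11121 on 4 h B. On 4 h B, BOP1 with 6164 and BRX1-1 with 585 were above both controls. PES, a factor of large-subunit assembly, differed by -0.98 at 4 h and by -0.62 at 0.5 h, WDR12 by -0.67 and -0.75, and BRX1-1 by -0.39 and -0.61. BOP1 differed by -0.32 and -0.36. In the ATHB15 comparison 0 of these 5 were called in either direction in limma. Of the brassinosteroid signalling list 2 of 11 have a named probe set. BRL1, present on 3 of the 10 WOL arrays, differed by -0.73 at 4 h and -1.53 at 2 h and BIM1 by 0.52 and 0.80. Neither was a member and 0 were called in ATHB15 cells. No gene of hormone synthesis on the list has a named probe set. The stem cell regulator BBM, with 172 and 320 in the control and 16.6 and 95.5 at 4 h and called present on 7 of the 10 WOL arrays, and the replication helicase gene MCM7, with 523 and 1069 in the control and 278 and 479 at 4 h, were also lower at 4 h without a step down at every time.

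Members lay on all 5 chromosomes, 7, 2, 13, 7 and 11 of the 40 named ones in the order of chromosome 1 to 5 by the reference gene table. Only TOPII and AT3G23880 were direct neighbours among protein-coding genes of that table. AT3G23880 had a largest step of the same kind, with 48.5% of its difference present at 0.5 h, and in ATHB15 cells it had 837, 381 and 644 in the control and 940 and 369 after BL, which overlap.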

How the data were processed

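The authors deposited linear signal intensity in 2 tables, equal on 342150 of 342150 values. After trimming 2% at each end, every array averaged 250. One table adds, per the file headers, detection calls and the detection p-value for each signal; the deposited calls served as a filter and for bounds. No source used here names the software. Signals were analysed as log2(signal + 16), because they include 1 signal of 0, and 64 Affymetrix controls among the 22810 probe sets were dropped.

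The members, gene lists and tests were chosen with earlier results of these data known, so a pattern seen before is no independent support. Group means over all 15 arrays in 7 groups were estimated with limma 3.58.1 in R 4.3.3 (8 residual and 6.34 prior degrees of freedom), with two-sided p-values adjusted by the Benjamini-Hochberg method over 22746 probe sets and a call at an adjusted p under 0.05. The test was checked on simulated data with known falls and independent noise. Rises as small as the members' median difference in ATHB15 cells were not simulated. Bounds set an absent signal to that array's lowest present one if it is higher.

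Members with 1 gene were named for the 12 largest WOL differences, the 6 highest control signals, or the 4 lowest and 4 highest ATHB15 differences. A place in a gene list or at the threshold also counted, and these rules gave 24. Others are named after their values were seen, for a known role or for a value or pattern they show. The reference tables hold names and no gene descriptions or sequences, and of 13513 single-gene probe sets 13436 have a locus there. Arrays of equal label were checked for pairing: A minus B correlated between WOL groups at -0.19 to 0.42, over 0.1 in 4 of 10 pairs of groups, and in ATHB15 cells 1 minus 2 correlated at 0.01, so labels were not taken to pair arrays. Alternatives were other offsets, quantile normalization, median centring, a filter, each array left out, the ATHB15 arrays alone, a replicate block and RNA quality covariates. The number of arrays limits the precision.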

Additional observations from a re-analysis of the deposited data

Results flagged for a closer look

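Changes at 2 h of BL ran in opposite directions in both lines, with no overlap between BL and control arrays in either, for 28 of the 77 members, 15 of them named, where 6.88% of the probe sets present in both WOL controls showed the same pattern. The WOL side of it was part of the choice of members, so the count is a description and the difference between lines was not tested. On the log2 scale the ATHB15 change exceeded the WOL change by 2.32 for AT5G24490, 2.09 for AT3G54970, 2.08 for AT1G72820, and 1.89 each for AT1G68220 and AT1G12930. It exceeded it by 1.77 for AT4G32910, 1.64 for AT1G53200, 1.62 for TOP3A and 1.59 for AT5G59500. The same figure was 1.43 for AT3G50690, 1.40 for AT3G02690, 1.28 for PRH75 and 1.24 for TOPP7, and 1.09 for both AT2G43260 and AT5G48940. For AT5G24490 the WOL change was -1.63 and the ATHB15 change 0.69.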

How the results depend on the processing

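The choice of 77 members changed with most settings. It was 31 with an offset of 64, 37 with median centring (33 of them among the 77), 117 with no detection call required, 209 with a size of at least 0.5 and 13 with at least 1.5. Leaving out 1 array gave 38 to 175. Without WOL control B it was 38, of which 20 are among the 77, and without WOL control A 161, of which 75 are. Without WOL BL 4 h A it was 63, of which 20 are, and without WOL BL 4 h B 175, of which 74 are. Arrays of the middle times mattered too. Without WOL BL 1 h A it was 49, of which 38 are, and without 1 h B 65, of which 36 are. Without WOL BL 2 h A it was 67, of which 46 are, and without 2 h B 68, of which 47 are. Without WOL BL 0.5 h A it was 77, of which 63 are, and without 0.5 h B 81, of which 56 are. Without both WOL control B and WOL BL 4 h A, chosen after seeing the data, it was 154, of which 9 are among the 77. Median centring moved the median of all probe sets from -0.11 to 0.06 at 2 h; under it and under quantile normalization every member stayed lower at 4 h than in the control, by at least 0.91 and 0.99.

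The count of members called higher in ATHB15 cells was 1, and 0 with an offset of 1, quantile normalization, the ATHB15 arrays alone, or the UBQ, GAPDH or actin ratio as a covariate, 5 with an offset of 64 and 4 when dim probe sets were left out. Leaving out 1 array gave 0 to 1: the call was lost in 13 of 15 such fits and kept in the 2 that leave out a WOL 4 h array. With the replicate block it was also 0, with a median difference over members of 0.38, and 63 members were above 0. The median of 0.35 became 0.44 with median centring and 0.16 with the UBQ ratio, and 0.24 to 0.41 without 1 array. Members above 0 numbered 48 to 63 over all these settings, and members called lower were 0 in each, with 0 at an unadjusted p under 0.05 in limma as first fitted. The sign turned for AT4G16770 with the GAPDH ratio (0.036) and without ATHB15 control 1, its range without 1 array being -0.619 to 0.059. It turned for AT1G72410 with the GAPDH ratio (0.055), with the actin ratio (0.046) and without ATHB15 BL 2, with a range of -0.400 to 0.019 without 1 array, and for TOPII with the GAPDH ratio (0.037). The cause was not tested.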
